A study of Mus musculus with 6 samples.

Results

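The genes that build the DNA replication machinery, from the recognition of origins to the proteins of the moving fork, were compared between aged and young Day 3 wound macrophages. The set of 52 genes was listed by symbol for their roles, with earlier results of these data known, and all 52 were found among the 15168 genes of the count table. They were described in 14 groups, each a complex or a step of replication. Macrophages had been sorted as live cells positive for CD45, CD11b, CD64 and F4/80 from full-thickness excisional wounds on the backs of female wild-type C57BL/6J mice. According to the study's methods, a small number of neutrophils may be among the sorted cells, since Ly6G was not used in the sort. The young group was 3 samples from mice labelled 12 weeks old (young A, B and C). The aged group was 3 samples from mice labelled 24 months old (aged A, B and C). All were taken 3 days after wounding. The mice were given anaesthesia and pain relief with the wounds and no other agent is named. The letters name sets of samples. The labels do not state whether a sample came from 1 mouse or from a pool, so that p-values measure the spread between these samples. RNA was amplified with a SMART-Seq low-input kit, and the total expected count per sample, the estimated number of reads on all genes, ran from 15270103 to 17927483.

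Replication starts at origins, which are bound by the origin recognition complex (ORC). In G1, ORC and Cdc6 together with Cdt1 load the hexameric MCM helicase onto DNA. Geminin blocks Cdt1 outside G1 so that an origin fires no more than once per cycle. In S phase, Cdc45 and the GINS complex join MCM to form the active CMG helicase, and the DNA polymerases, the PCNA clamp, its RFC loader and the single-strand binding protein RPA assemble at the fork. Many of these genes are known targets of E2F transcription factors and are transcribed around the entry into S phase. Mature macrophages in tissue are mostly outside the cycle, although some proliferate locally.

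Replication genes were widely lower in aged Day 3 wound macrophages. After a filter on low counts 48 of the 52 were tested, and 25 fell with age at an adjusted p-value under 0.05 (quasi-likelihood test of edgeR, with p-values adjusted by Benjamini-Hochberg over the 11878 genes tested), compared with 7.97% of all genes tested. None rose, at 0 of 48 against 9.73% of all genes tested. None rose at an unadjusted p-value under 0.05 or with DESeq2 or limma-voom. More than 2-fold falls were found in 17 of the 48, compared with 4.2% of all genes tested. In 35 of the 48, every aged sample was below every young sample, which was the case for 19% of all genes tested. Across the 48 genes the median log2 fold change was -0.94, whereas that of all genes tested was -0.02 with quartiles of -0.42 and 0.42, and 38 of the 48 lay below the lower of these quartiles. In sorted but bulk RNA, fewer cells in S phase and less of these transcripts per cell cannot be told apart. The summed level of the 52 genes was 927, 764 and 916 CPM in young and 570.1, 590.3 and 549.7 CPM in aged samples (CPM, counts scaled to library size). Here and below, 3 values given for an age are those of sets A, B and C in that order. The groups did not overlap in this sum, and the aged samples lay closer together than the young samples. The number of falling members was 5 of 49 tested without young C and 8 of 50 tested without aged C. Over the whole table it dropped from 947 to 67 and 194, and the median log2 fold change of the members was -0.91 and -0.82. The fall was not even along the pathway, and the plot of fold changes shows most genes of the CMG helicase, Mcm10, Prim1, Rfc4, Gmnn and Tipin far below 0 and genes such as Pcna, Fen1 and Pold3 near it.

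**Figure D1:**
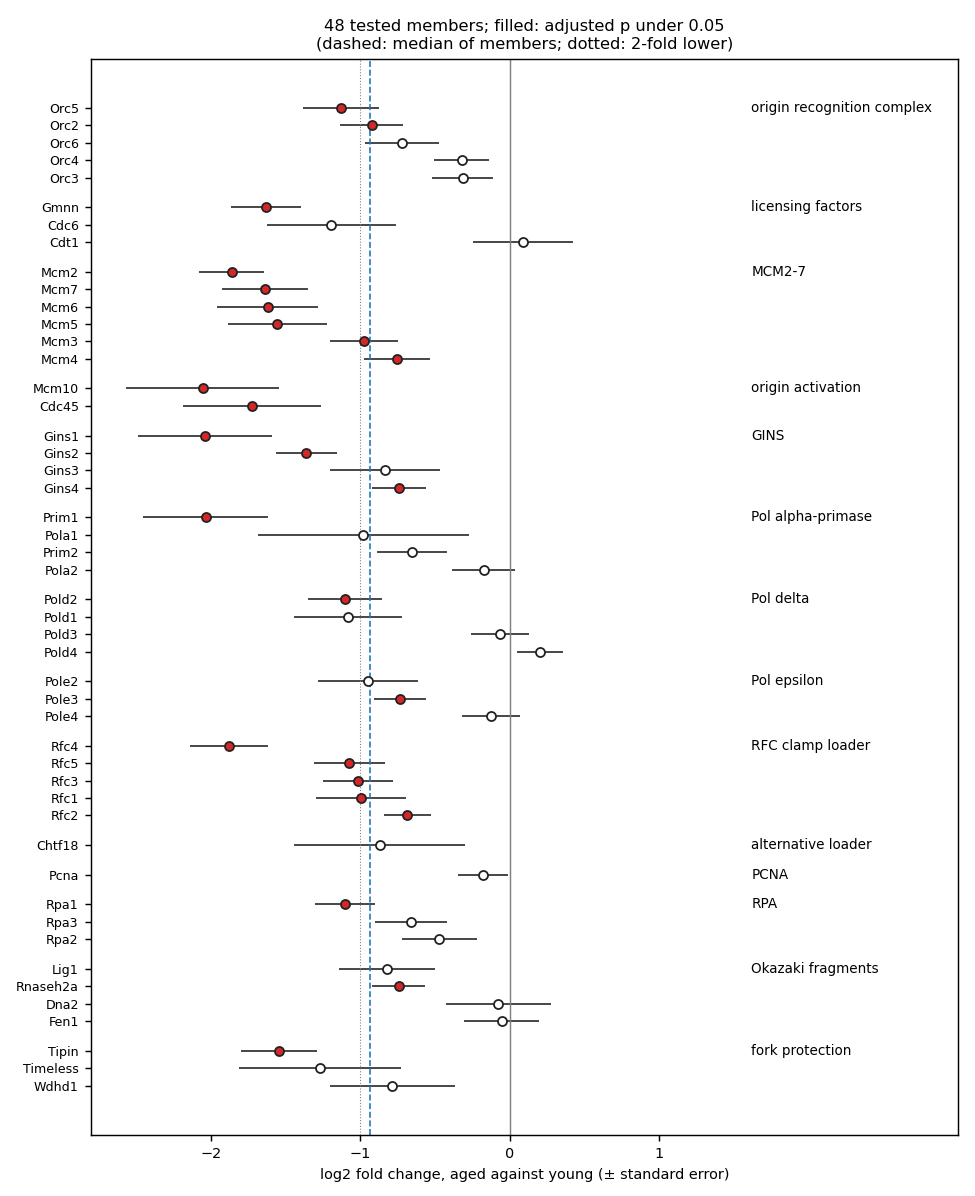
Log2 fold change of aged against young samples with its standard error for the 48 tested genes, ordered by complex, on the horizontal axis. Filled points are the 25 genes with an adjusted p-value under 0.05, the dashed line is the median of the 48 genes (-0.94), the dotted line marks a 2-fold fall, and only Cdt1 and Pold4 lie to the right of 0.

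Promoters were examined for the letters of motifs that are known from cell cycle genes, since E2F targets are common among replication genes. RefSeq promoters (250 bases before and 50 after the start site, 300 bases in all, GRCm38.p6) were at hand for 42 of the 52 genes. Of the tested members with a promoter at hand, the 3 with the lowest and the 2 with the highest log2 fold change are shown to set low and high values side by side (Gins1, second lowest of the 48, was without one), and Mcm6, chosen after its values were seen, because its window held the most E2F letters. Sequences read 5′ to 3′ on the strand of the gene, and capitals mark matches, on either strand, to E2F, CCAAT or CHR letters. Windows were at chr2:5012742-5013041 (minus strand) for Mcm10, chr10:128014965-128015264 (plus strand) for Prim1, chr16:23127681-23127980 (minus strand) for Rfc4, chr19:4231643-4231942 (plus strand) for Pold4, chr8:122567765-122568064 (plus strand) for Cdt1 and chr1:128359656-128359955 (minus strand) for Mcm6.
Mcm10: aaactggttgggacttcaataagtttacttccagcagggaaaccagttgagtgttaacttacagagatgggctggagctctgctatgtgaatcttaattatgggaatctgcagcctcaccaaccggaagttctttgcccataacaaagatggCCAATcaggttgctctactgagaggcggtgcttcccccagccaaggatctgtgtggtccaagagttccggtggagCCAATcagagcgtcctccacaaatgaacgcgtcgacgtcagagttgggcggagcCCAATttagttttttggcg
Prim1: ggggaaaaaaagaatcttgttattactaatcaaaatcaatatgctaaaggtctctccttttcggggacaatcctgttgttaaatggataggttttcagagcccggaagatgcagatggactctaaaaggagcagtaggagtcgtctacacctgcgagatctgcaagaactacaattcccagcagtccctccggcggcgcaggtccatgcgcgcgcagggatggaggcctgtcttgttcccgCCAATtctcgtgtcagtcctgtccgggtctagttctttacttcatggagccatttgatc
Rfc4: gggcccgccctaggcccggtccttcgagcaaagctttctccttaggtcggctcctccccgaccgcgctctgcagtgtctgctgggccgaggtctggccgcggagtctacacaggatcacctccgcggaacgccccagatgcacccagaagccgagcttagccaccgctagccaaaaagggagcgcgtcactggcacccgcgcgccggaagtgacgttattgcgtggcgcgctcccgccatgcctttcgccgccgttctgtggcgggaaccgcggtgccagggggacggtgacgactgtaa
Pold4: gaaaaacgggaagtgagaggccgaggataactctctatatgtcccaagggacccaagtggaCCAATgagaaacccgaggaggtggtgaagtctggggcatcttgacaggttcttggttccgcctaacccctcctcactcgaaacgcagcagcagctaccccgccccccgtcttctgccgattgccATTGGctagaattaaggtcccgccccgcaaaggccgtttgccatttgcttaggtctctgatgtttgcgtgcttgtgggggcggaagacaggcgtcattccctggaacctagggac
Cdt1: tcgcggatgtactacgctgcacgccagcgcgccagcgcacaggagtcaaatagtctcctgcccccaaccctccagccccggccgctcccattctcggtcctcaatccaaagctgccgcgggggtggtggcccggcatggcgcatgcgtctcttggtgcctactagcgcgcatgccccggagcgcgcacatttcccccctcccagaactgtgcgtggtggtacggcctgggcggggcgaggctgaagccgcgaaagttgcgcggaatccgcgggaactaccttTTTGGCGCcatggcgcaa
Mcm6: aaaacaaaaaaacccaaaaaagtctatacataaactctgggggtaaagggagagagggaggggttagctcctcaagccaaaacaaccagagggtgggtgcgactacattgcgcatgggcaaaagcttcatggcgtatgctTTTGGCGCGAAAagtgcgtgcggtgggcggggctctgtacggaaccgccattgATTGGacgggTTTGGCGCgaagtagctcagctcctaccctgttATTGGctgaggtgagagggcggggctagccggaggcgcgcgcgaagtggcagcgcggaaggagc

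The Mcm10 window held CCAAT 3 times and the Prim1 window once, neither held a full E2F match, and the Rfc4 window held none of the letters searched. The Mcm10 window ends in tttggcg, the beginning of the E2F letters TTTGGCGC, and a match that runs past the end of a window was not counted. The Pold4 window held CCAAT letters 2 times, on opposite strands, and the Cdt1 window a single E2F match 33 bases after the start site. The Mcm6 window held 3 E2F matches, of which a pair overlapped, and 2 CCAAT matches. E2F letters (TTTCCCGC, TTTGGCGC, TTTCGCGC or TTTGCCGC, on either strand) were in 16 of the 42 promoters (38.1%), whereas 2.33% of all 27025 promoters and 4.22% of the 8753 promoters of tested genes held them. Among members that fell, 5 of 18 promoters held E2F letters (27.8%), namely those of Mcm3, Mcm5, Mcm6, Mcm7 and Rfc3, and among tested members without a call 9 of 22 did (40.9%). CCAAT, the letters bound by NF-Y, were in 25 of 42 promoters (59.5%), compared with 38.0% of all promoters and 39.4% of those of tested genes. They were in 14 of the 18 promoters of members that fell (77.8%) and in 9 of 22 of those without a call (40.9%). CHR letters (TTTGAA or TTCGAA), an element of late cell cycle promoters, were in 6 of 42 (14.3%), against 19.5% of all promoters and 14.3% of those of tested genes. A match is a string of letters and not a bound site.

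All 6 subunits of the MCM ring, the motor of the helicase, fell in aged samples. Their summed level was 167, 88.6 and 146 CPM in young and 50.2, 59.4 and 45.8 CPM in aged samples. Young B was the lowest young sample in each of the 6 genes, and no aged sample reached a young sample in any of them. Mcm2 (chromosome 6, 88883474 to 88898780, mm10) was measured at 16.9, 13.6 and 16.6 CPM in young and 4.34, 4.78 and 3.83 CPM in aged samples. Mcm2 was 3.64-fold higher in young than in aged samples by the group means (log2 fold change -1.86, standard error 0.22, adjusted p = 0.00188), and it passed the test in 6 of the 6 fits that each left out 1 sample. Mcm7 (chromosome 5, 138164583 to 138172422) was at 26.3, 11.7 and 22.1 CPM in young and 6.52, 6.75 and 5.99 CPM in aged samples. The aged samples of Mcm7 lay within 1 CPM of each other, whereas young A stood well above young B (log2 fold change -1.64, standard error 0.29, adjusted p = 0.00837). Mcm6 (chromosome 1, 128331590 to 128359664), per kilobase the most abundant of the 6 in young samples, was at 52.2, 18.9 and 45.8 CPM in young and 11.2, 15.7 and 11.1 CPM in aged samples. Young A and C stood well above young B in Mcm6, and young B was close to aged B (log2 fold change -1.62, standard error 0.34, adjusted p = 0.0142). Mcm5 (chromosome 8, 75109569 to 75128439) was at 23.01, 12.5 and 21.9 CPM in young and 5.25, 9.68 and 4.57 CPM in aged samples. Aged B was the highest aged sample of Mcm5 and young B the lowest young sample, without overlap (log2 fold change -1.55, standard error 0.33, adjusted p = 0.0152).

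The other MCM subunits fell by less. Mcm3 (chromosome 1, 20802968 to 20820312) was at 26.4, 17.7 and 20.01 CPM in young and 10.6, 13.2 and 8.89 CPM in aged samples, and aged B was again the highest aged sample (log2 fold change -0.97, standard error 0.23, adjusted p = 0.0204). Mcm4 (chromosome 16, 15623897 to 15637400) was at 21.7, 14.3 and 19.4 CPM in young and 12.3, 9.23 and 11.4 CPM in aged samples. Young B and aged A were 14.3 and 12.3 CPM, so that the groups were separated by a narrow gap in Mcm4 (log2 fold change -0.75, standard error 0.22, adjusted p = 0.0406), and it passed the test in 1 of the 6 fits that each left out 1 sample. Since the subunits enter the ring in equal number, levels were also compared per kilobase of transcript. In young samples Mcm6 made up 23.4% of the summed level per kilobase of the 6 genes and Mcm2 12.2%. In aged samples the shares were 24.1% for Mcm3, 20.5% for Mcm4 and 8.58% for Mcm2, so that Mcm3 and Mcm4 passed Mcm6 in the order of levels.

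The proteins that turn loaded MCM into a working helicase were among the members with the largest falls, at low levels. Mcm10 (chromosome 2, 4989714 to 5012791), which is needed for the activation of the helicase, had the lowest log2 fold change of the 48 genes. It was measured at 29, 19 and 21 counts in young and 3, 7 and 5 counts in aged samples, or 1.37 ± 0.245 CPM over the young and 0.322 ± 0.118 CPM over the aged samples (SD, n = 3). Even the highest aged sample of Mcm10 was below the lowest young sample (log2 fold change -2.06, standard error 0.51, adjusted p = 0.02504). Cdc45 (chromosome 16, 18780447 to 18811987), the part of the CMG helicase that joins MCM and GINS, was at 57, 41 and 41 counts in young and 13, 19 and 6 counts in aged samples. Aged C had the fewest Cdc45 counts and aged B the most of the aged samples, and neither reached the young samples (log2 fold change -1.73, standard error 0.46, adjusted p = 0.0312). At these counts Mcm10 and Cdc45 each passed the test in 1 of the 6 fits that each left out 1 sample.

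GINS, the 4-subunit complex that completes the CMG helicase, fell in 3 of its 4 genes, compared with 7.97% of all genes tested. Gins1 (chromosome 2, 150905400 to 150931280) was at 3.87, 4.75 and 7.07 CPM in young and 0.841, 0.764 and 2.16 CPM in aged samples. Aged C held more Gins1 than the other aged samples but less than each young sample (log2 fold change -2.04, standard error 0.45, adjusted p = 0.0166). Gins2 (chromosome 8, 120578633 to 120589304) was at 15.4, 18.9 and 17.5 CPM in young and 6.02, 7.64 and 6.49 CPM in aged samples, with narrow ranges in both ages (log2 fold change -1.36, standard error 0.21, adjusted p = 0.004503). Of the merged exon bases of Gins2, 67.3% are shared with Gse1 on the opposite strand, so that reads of the pair cannot be told apart if strand was not used. Gse1 itself did not pass the test (log2 fold change -0.15, adjusted p = 0.824). Gins4 (chromosome 8, 23226616 to 23237659), the most abundant of the 4 per kilobase, was at 24.3, 29.8 and 31.97 CPM in young and 19.4, 16.4 and 15.7 CPM in aged samples. All aged samples of Gins4 lay below young A, the lowest young sample, with a smaller fold change than that of Gins1 and Gins2 (log2 fold change -0.74, standard error 0.18, adjusted p = 0.02396), and Gins4 passed in 2 of the 6 fits that each left out 1 sample. Gins3 was at 3.71, 2.699 and 3.897 CPM in young and 2.66, 1.27 and 1.85 CPM in aged samples and did not pass the test (log2 fold change -0.83, adjusted p = 0.137), although the groups did not overlap. Across the 11 genes of the CMG helicase, 10 fell. Their median log2 fold change was -1.55, and their summed level was 217, 147 and 209 CPM in young and 80.0, 86.7 and 72.3 CPM in aged samples.

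The origin recognition complex marks origins and stays on chromatin for much of the cycle. It fell in 2 of its 5 tested genes, compared with 7.97% of all genes tested. Orc5 (chromosome 5, 22486485 to 22550429) was at 9.46, 16.6 and 13.5 CPM in young and 5.81, 5.48 and 6.79 CPM in aged samples. Young A was the lowest young sample of Orc5 and still above all aged samples (log2 fold change -1.13, standard error 0.25, adjusted p = 0.0184). Orc2 (chromosome 1, 58462771 to 58505109) was at 11.2, 14.4 and 13.3 CPM in young and 7.01, 6.37 and 7.103 CPM in aged samples, and the aged samples lay within 1 CPM of each other (log2 fold change -0.92, standard error 0.21, adjusted p = 0.0185). The Orc2 exons share 29.8% of their bases with Nif3l1 on the other strand, which had a log2 fold change of 0.09 (adjusted p = 0.823). Orc6 was at 17.2, 13.3 and 25.8 CPM in young and 11.1, 11.3 and 11.7 CPM in aged samples, without overlap but with a wide young range, and did not pass the test (log2 fold change -0.72, adjusted p = 0.0673). Orc3 (chromosome 4, 34570796 to 34614944) and Orc4 overlapped between the ages. The values of Orc3 were 18.9, 28.7 and 24.97 CPM in young and 18.4, 22.7 and 17.4 CPM in aged samples, and young A lay within the aged range (log2 fold change -0.31, standard error 0.20, adjusted p = 0.302). For Orc4 they were 24.3, 32.8 and 31.9 CPM in young and 20.7, 25.8 and 24.6 CPM in aged samples, with a log2 fold change of -0.32 (adjusted p = 0.242). Orc1, the largest subunit, was not tested, at 20, 11 and 9 counts in young and 1, 4 and 2 counts in aged samples, each aged sample below each young sample.

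The licensing factors did not move together. Gmnn (chromosome 13, 24751845 to 24761923), which encodes geminin, was at 12.1, 11.03 and 15.3 CPM in young and 4.55, 3.95 and 3.89 CPM in aged samples. The aged samples of Gmnn lay within 1 CPM of each other and far below the young samples (log2 fold change -1.63, standard error 0.23, adjusted p = 0.00379), and the gene passed the test in 6 of the 6 fits that each left out 1 sample. Cdc6, the ATPase that loads MCM with ORC, was at 50, 29 and 35 counts in young and 19, 16 and 10 counts in aged samples. Its groups did not overlap, but it did not pass the test (log2 fold change -1.19, standard error 0.432, adjusted p = 0.0793). Cdc6 passed with limma-voom (adjusted p = 0.0225) and in edgeR with at least 10 counts required in every sample (adjusted p = 0.0427). Cdt1 (chromosome 8, 122568015 to 122573554), the loading factor that geminin binds, was at 46.6, 15.7 and 22.7 CPM in young and 35.9, 26.7 and 28.1 CPM in aged samples. Young A was the highest and young B and C the lowest of all 6 samples, so that the aged samples lay inside the young range (log2 fold change 0.09, standard error 0.34, adjusted p = 0.873). The sign of the Cdt1 value depended on the samples used, at -0.19 without young B and 0.661 at the highest, without young A. The ratio of Cdt1 to Gmnn, picked from 6 ratios that were formed after these values were seen, is a description and is given with no p-value. It was 3.84, 1.42 and 1.48 in young A, B and C and 7.88, 6.76 and 7.22 in aged A, B and C. Each aged sample thus held more Cdt1 transcript per Gmnn transcript than each young sample, as the plot of both genes and their ratio shows.

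**Figure D2:**
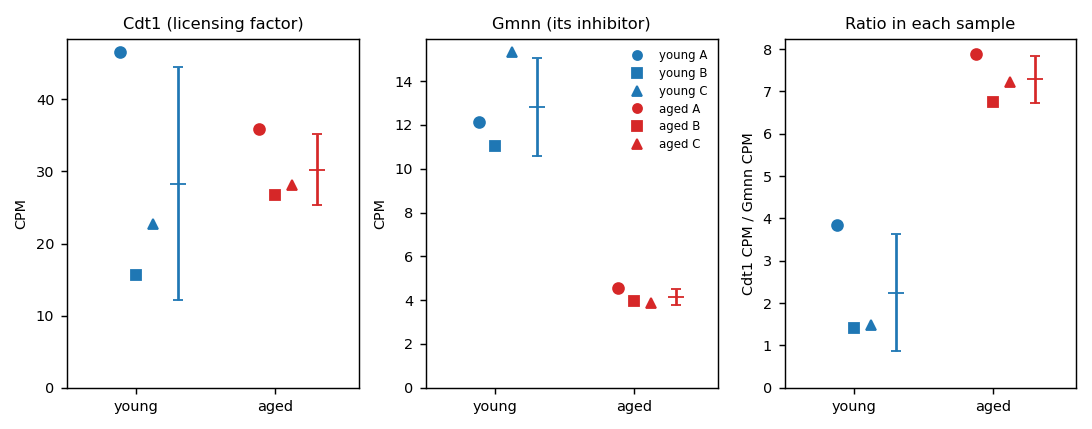
CPM of Cdt1, CPM of Gmnn and the ratio of the 2 in each of the 6 samples, with the mean and SD of each age (n = 3) drawn as bars beside the points. The aged samples of Cdt1 (26.7 to 35.9 CPM) lie inside the young range, those of Gmnn (3.89 to 4.55 CPM) below it, and the ratio runs from 1.42 to 3.84 in young and from 6.76 to 7.88 in aged samples.

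The replicative polymerases fell in 3 of 11 tested genes, compared with 7.97% of all genes tested, and their median log2 fold change was -0.74. In the polymerase alpha-primase complex, which lays down the primers, the primase subunit Prim1 (chromosome 10, 128015168 to 128030037) was at 5.42, 4.11 and 6.14 CPM in young and 0.701, 2.102 and 0.988 CPM in aged samples. Aged B held the most Prim1 of the aged samples and young B the least of the young samples, without overlap (log2 fold change -2.03, standard error 0.42, adjusted p = 0.01396). Prim2, the other primase subunit, was at 7.02, 8.21 and 9.31 CPM in young and 5.46, 5.48 and 4.63 CPM in aged samples. The Prim2 groups were separated but the difference did not pass the test (log2 fold change -0.66, adjusted p = 0.0769). Pola2 (chromosome 19, 5940542 to 5964202), the regulatory subunit, was at 9.74, 8.80 and 8.26 CPM in young and 8.41, 7.45 and 7.91 CPM in aged samples. The young and aged ranges of Pola2 overlapped and lay close together (log2 fold change -0.17, standard error 0.21, adjusted p = 0.5901). Pola1, the catalytic subunit, was at 51, 24 and 40 counts in young and 5, 43 and 6 counts in aged samples. Aged B stood apart with a level like that of young A, whereas aged A and C were far below all young samples, and the difference did not pass the test (log2 fold change -0.98, standard error 0.705, adjusted p = 0.352). Without aged B the log2 fold change of Pola1 was -2.63 (edgeR, adjusted p = 0.0221). It was -0.56 without aged A and -0.55 without aged C, and passed in neither fit. With limma-voom on all samples it was -1.86 (adjusted p = 0.0391).

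In polymerase delta, which copies the lagging strand, 1 of the 4 tested genes fell and 0 rose. Of all genes tested, 7.97% fell and 9.73% rose. Pold2 (chromosome 11, 5872180 to 5878292) was at 15.3, 10.1 and 14.0 CPM in young and 4.904, 7.26 and 6.11 CPM in aged samples, and all aged samples were below all young samples (log2 fold change -1.10, standard error 0.25, adjusted p = 0.0184). Pold1, the catalytic subunit, was at 3.37, 5.34 and 6.87 CPM in young and 3.01, 2.67 and 1.67 CPM in aged samples, and young A was little above aged A. Pold1 did not pass the edgeR test (log2 fold change -1.08, adjusted p = 0.0618) and passed that of DESeq2 (adjusted p = 0.0454). Pold3 was at 25.2, 19.4 and 20.5 CPM in young and 17.4, 24.5 and 20.4 CPM in aged samples, overlapping throughout (log2 fold change -0.06, adjusted p = 0.850). Pold4 (chromosome 19, 4231899 to 4233634), the smallest subunit, was at 38.1, 35.9 and 41.5 CPM in young and 45.8, 41.9 and 45.3 CPM in aged samples. Pold4 was the only tested member with all aged samples above all young samples, and the difference did not pass the test (log2 fold change 0.20, standard error 0.15, adjusted p = 0.369). Per kilobase, Pold4 was the most abundant polymerase delta gene in both ages, at 71.8% of the summed level in young and 81.3% in aged samples.

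In polymerase epsilon, which copies the leading strand, the catalytic gene Pole was below the filter at 5, 6 and 6 counts in young and 1, 2 and 3 counts in aged samples, so that all aged samples were at or under the floor of 3 counts and no fold is given. Pole3 (chromosome 4, 62522649 to 62525068), a histone-fold subunit, was at 25.8, 21.9 and 21.7 CPM in young and 13.3, 13.6 and 14.8 CPM in aged samples. Its aged samples lay close together below the young samples (log2 fold change -0.74, standard error 0.17, adjusted p = 0.02098), and Pole3 passed in 2 of the 6 fits that each left out 1 sample. Pole2 (chromosome 12, 69201773 to 69228195) was at 3.37, 5.98 and 4.56 CPM in young and 3.01, 2.36 and 1.85 CPM in aged samples, and the ranges were separated with aged A close to young A (log2 fold change -0.95, standard error 0.34, adjusted p = 0.0746). Pole4 (chromosome 6, 82618992 to 82705365), the other histone-fold subunit, was at 70.7, 51.1 and 76.03 CPM in young and 50.1, 66.7 and 64.3 CPM in aged samples. Pole4 overlapped between the ages, with the lowest values in aged A and young B (log2 fold change -0.13, standard error 0.19, adjusted p = 0.678).

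All 5 genes of the RFC clamp loader fell, although Rfc1 did not pass with the replicate block (adjusted p = 0.0620) or without a filter on low counts (adjusted p = 0.0526), while the clamp they load, PCNA, did not pass the test. Rfc4 (chromosome 16, 23113943 to 23127737) was at 8.91, 9.45 and 10.8 CPM in young and 2.38, 3.31 and 2.22 CPM in aged samples. The young samples of Rfc4 were close together, 3.69-fold above the aged samples by the means (log2 fold change -1.88, standard error 0.26, adjusted p = 0.00361), and it passed the test in all 6 fits that each left out 1 sample. Rfc5 (chromosome 5, 117378103 to 117389047) was at 27.2, 21.6 and 24.6 CPM in young and 15.6, 8.47 and 10.8 CPM in aged samples, and aged A was its highest aged sample (log2 fold change -1.07, standard error 0.24, adjusted p = 0.0172). Rfc3 (chromosome 5, 151642756 to 151651242) was at 12.0, 15.3 and 14.7 CPM in young and 6.59, 8.598 and 5.56 CPM in aged samples, and aged B was the closest to the young samples (log2 fold change -1.01, standard error 0.23, adjusted p = 0.0197). Rfc1 (chromosome 5, 65261850 to 65335670), the large subunit, was at 6.804, 14.96 and 9.05 CPM in young and 5.32, 4.71 and 5.44 CPM in aged samples. Young B held the most Rfc1 and the ages did not overlap (log2 fold change -0.99, standard error 0.30, adjusted p = 0.0464), and the call was kept in 1 of the 6 fits that each left out 1 sample. Rfc2 (chromosome 5, 134581366 to 134601805), per kilobase the most abundant of the 5, was at 53.1, 52.4 and 62.02 CPM in young and 35.6, 32.9 and 35.8 CPM in aged samples. Rfc2 had the smallest fall of the 5 and narrow ranges in both ages (log2 fold change -0.68, standard error 0.16, adjusted p = 0.0188). Lat2 on the opposite strand shares 15.1% of the exon bases of Rfc2 and had a log2 fold change of -0.22 (adjusted p = 0.371). Rfc4 shares 12.7% with Eif4a2 (log2 fold change -0.35, adjusted p = 0.483). Rfc5 shares 10.7% with Wsb2, whose log2 fold change of 0.73 (adjusted p = 0.0798) was in the other direction.

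Pcna (chromosome 2, 132249162 to 132253314), per kilobase the most abundant member in both ages, was at 99.5, 71.98 and 90.3 CPM in young and 80.4, 78.6 and 72.3 CPM in aged samples. Young B was the lowest sample of all and young A the highest, so that the aged samples lay within the young range (log2 fold change -0.18, standard error 0.17, adjusted p = 0.481). Of the alternative loader that carries Dscc1 and Chtf18 in place of Rfc1, Chtf18 (chromosome 17, 25718926 to 25727419) was at 29, 17 and 16 counts in young and 4, 19 and 8 counts in aged samples. Aged B of Chtf18 was above young B and C (log2 fold change -0.87, standard error 0.57, adjusted p = 0.309). Dscc1 was not tested, at 52, 6 and 27 counts in young and 4, 5 and 2 counts in aged samples, with most of its counts in young A.

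RPA, the trimer that coats single-stranded DNA, fell in its largest subunit. Rpa1 (chromosome 11, 75298166 to 75348324) was at 24.4, 29.8 and 25.96 CPM in young and 10.6, 15.3 and 11.4 CPM in aged samples. The groups were widely separated (log2 fold change -1.10, standard error 0.20, adjusted p = 0.00914), and Rpa1 passed the test in 5 of the 6 fits that each left out 1 sample. Rpa3 was at 7.58, 6.51 and 7.53 CPM in young and 5.25, 3.95 and 4.51 CPM in aged samples, lower in each aged sample without passing the test (log2 fold change -0.66, adjusted p = 0.0826). Rpa2 (chromosome 4, 132768332 to 132778752) was at 7.91, 8.21 and 7.33 CPM in young and 4.97, 7.32 and 4.63 CPM in aged samples. Aged B almost met young C in Rpa2 (log2 fold change -0.47, standard error 0.25, adjusted p = 0.215).

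The genes that mature Okazaki fragments, the short pieces of the lagging strand, mostly did not pass the test. Rnaseh2a (chromosome 8, 84956610 to 84969767), the catalytic subunit of RNase H2, was at 23.5, 26.3 and 28.4 CPM in young and 17.2, 16.05 and 13.5 CPM in aged samples. It was the only one of the 4 to pass the edgeR test without a block, with separate ranges (log2 fold change -0.74, standard error 0.18, adjusted p = 0.0218). Fen1 (chromosome 19, 10199132 to 10204169), the flap endonuclease, was at 38.4, 17.8 and 24.2 CPM in young and 24.8, 27.6 and 25.1 CPM in aged samples. The aged samples of Fen1 lay between young A and young B and C (log2 fold change -0.05, standard error 0.25, adjusted p = 0.904), and its log2 fold change was 0.30 without young A. Gm10143, on the opposite strand and below the filter, shares 78.8% of the exon bases of Fen1. Lig1 (chromosome 7, 13277283 to 13311433), which seals the nicks, was at 11.6, 5.63 and 8.19 CPM in young and 6.38, 3.76 and 4.26 CPM in aged samples. Young A was the highest sample of Lig1, and aged A overlapped young B (log2 fold change -0.82, standard error 0.32, adjusted p = 0.0988). Lig1 passed the test with the replicate block (edgeR, adjusted p = 0.0486) and with limma-voom (adjusted p = 0.0354). Dna2, a nuclease-helicase for long flaps, was at 5.09, 4.17 and 3.57 CPM in young and 6.02, 2.48 and 3.71 CPM in aged samples, with aged A the highest and aged B the lowest of the 6 samples (log2 fold change -0.08, adjusted p = 0.901).

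Among the proteins that hold the fork together, Tipin (chromosome 9, 64281581 to 64305424) was at 19.97, 18.1 and 19.6 CPM in young and 9.18, 4.904 and 5.74 CPM in aged samples. Tipin, which partners Timeless in the fork protection complex, fell in aged samples with no overlap (log2 fold change -1.54, standard error 0.25, adjusted p = 0.00644) and passed the test in 6 of the 6 fits that each left out 1 sample. Timeless was at 62, 51 and 36 counts in young and 4, 31 and 22 counts in aged samples. Aged A was far below the other samples of Timeless, and the difference did not pass the test (log2 fold change -1.27, standard error 0.541, adjusted p = 0.124). Wdhd1 (chromosome 14, 47240944 to 47276857), which links the helicase to polymerase alpha, was at 43, 22 and 28 counts in young and 17, 18 and 14 counts in aged samples. Its ranges were separated by a small gap (log2 fold change -0.78, standard error 0.42, adjusted p = 0.2101). Clspn, the checkpoint adaptor at the fork, was not tested, at 23, 3 and 5 counts in young and 3, 2 and 5 counts in aged samples, and young A alone was high.

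**Figure D3:**
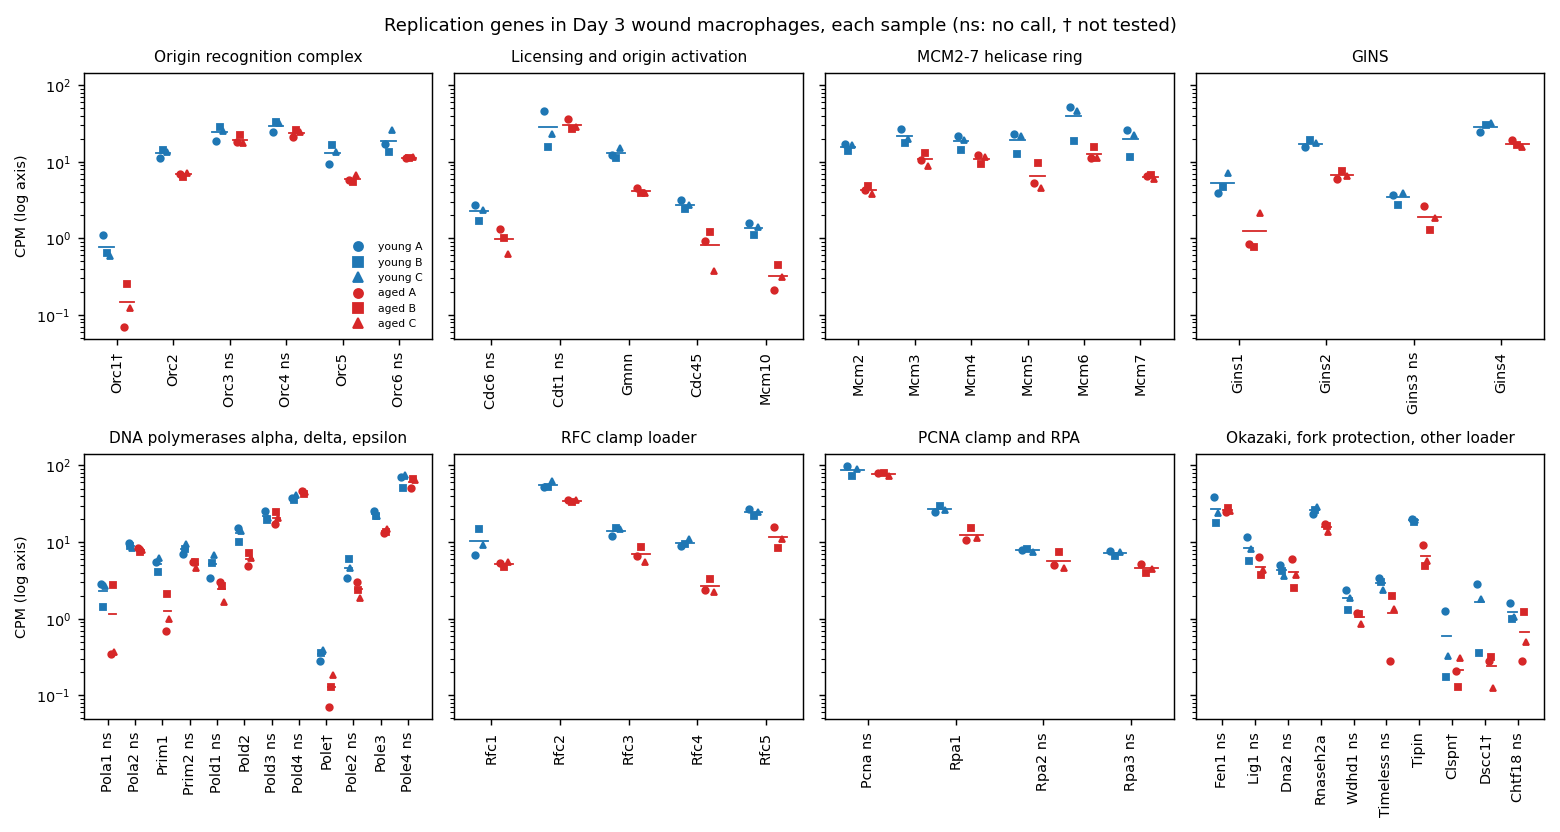
CPM on a log axis of each of the 52 genes in each sample, in panels by complex, with young samples in blue, aged samples in red, sets A, B and C as circles, squares and triangles, and short lines for group means. In the MCM, GINS and RFC panels the red points lie below the blue points for every gene, whereas the colours mix for genes such as Cdt1, Pold3, Pole4, Pcna, Fen1 and Dna2.

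Summed over its genes, each complex gave a level in every sample. The ratio of the aged to the young mean was 0.279 for Cdc45 and Mcm10, 0.3697 for the fork protection genes, 0.387 for MCM, 0.496 for GINS, 0.535 for RFC and 0.543 for RPA. The young and aged samples did not overlap in these sums. It was 0.884 for Pcna, 0.939 for polymerase delta, 0.817 for polymerase epsilon and 0.814 for the licensing factors, and these sums overlapped between the ages. In sums of CPM the transcripts with the highest CPM weigh most, such as Pole4, which made up most of the polymerase epsilon sum.

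**Figure D4:**
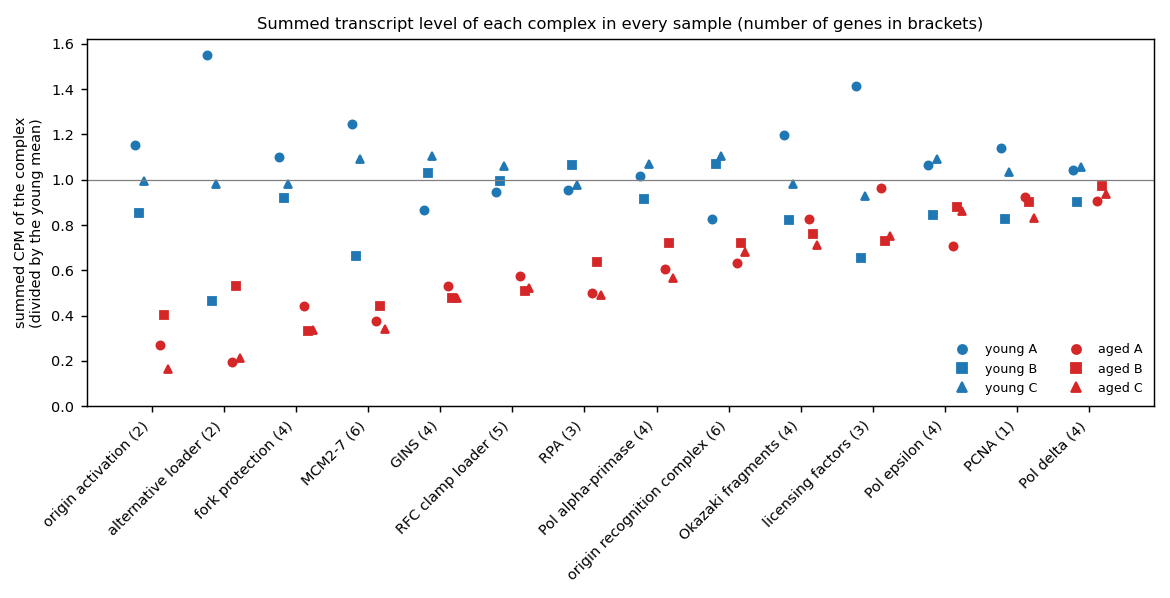
Summed CPM of each complex in each of the 6 samples, divided by the mean of the 3 young samples, with complexes ordered by the ratio of the means and the number of genes in brackets. The red points for the aged samples lie below all blue points from origin activation (ratio 0.279) to the origin recognition complex (ratio 0.678), apart from the alternative loader, where aged B lies above young B.

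In the sum over all members the young samples differed among themselves more than the aged samples did, but gene by gene the spread was similar. Over the 48 tested members, the coefficient of variation had a median of 17.98% among the young samples and 16.8% among the aged. It was the larger among the young for 27 of the 48. Young A was the highest young sample in 28 of the 52 genes and young B the lowest in 30. A level of young A over 1.5 times the mean of young B and C was found in 7 of the 48 tested members (14.6%), compared with 12.2% of all genes tested. Aged B was the highest aged sample in 25 of the 52 genes. Without young A the median log2 fold change of the 48 members tested in that fit was -0.83 and 24 fell, and without aged B it was -0.92 over 50 tested members and 21 fell. Across all genes tested, 1128 fell without young A and 608 without aged B.

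Other genes of DNA replication, a list of 42 genes of which 38 were tested, were examined beside the members. In this list 3 of the 38 genes fell and 1 rose, a share of falling genes close to the 7.97% of all genes tested and a share of rising genes below the 9.73% of all. The median log2 fold change was -0.47, and the summed level was 398 to 457 CPM over the young and 388 to 464 CPM over the aged samples, so that the ages overlapped. Chaf1a, a subunit of a chromatin assembly factor, fell (log2 fold change -1.20, adjusted p = 0.0352), as did Mms22l, which acts at stalled forks (-1.42, adjusted p = 0.0296). The histone chaperone Asf1b also fell (log2 fold change -1.51, standard error 0.33, adjusted p = 0.0159). Asf1b was at 14.2, 9.33 and 14.3 CPM in young and 3.64, 6.62 and 2.96 CPM in aged samples, without overlap. The lowest log2 fold changes were those of Dtl (-1.88, adjusted p = 0.0564), an adaptor of the ligase that degrades Cdt1, and of Pclaf (-1.85, adjusted p = 0.0618), a PCNA partner, and neither passed the test. Rad9a, part of the checkpoint clamp, rose (log2 fold change 0.63, standard error 0.19, adjusted p = 0.0447). Chtf8 and Donson, a factor of helicase assembly, had the highest log2 fold changes, 1.56 (adjusted p = 0.0826) and 0.75 (adjusted p = 0.0761), and did not pass the test.

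Transcripts that mark cycling cells were also examined. Of a list of 19, 16 were tested, 10 fell and 1 rose, whereas 7.97% of all genes tested fell and 9.73% rose. The median log2 fold change of the list was -1.55. Ccnb2, Aurka, Bub1, Bub1b and Kif11 did not pass the test. The summed level of the list was 88.5, 45.1 and 83.6 CPM in young and 24.7, 42.4 and 28.97 CPM in aged samples. Young B was close to aged B, and the list followed the members in having its lowest young value in young B. The genes that fell were Cdk1, the mitotic kinase, its cyclins Ccnb1 and Ccna2, Birc5, Aurkb, Cdc20, Tpx2, Nusap1, Ube2c and Mybl2. Cdk1, the highest of the list by mean CPM in young samples and just below Aurka in aged samples, was at 14.1, 7.22 and 14.3 CPM in young and 2.94, 4.84 and 4.57 CPM in aged samples (log2 fold change -1.52, standard error 0.32, adjusted p = 0.0149). Mki67, which encodes the proliferation antigen Ki67, was at 1.94, 1.701 and 1.65 CPM in young and 3.503, 5.03 and 3.09 CPM in aged samples. Unlike the genes that fell, Mki67 was higher in each aged sample than in each young sample (log2 fold change 1.13, standard error 0.33, adjusted p = 0.0412). The part of a smaller share of cycling cells in the lower replication genes was not tested.

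Of the 8 macrophage genes, 7 had mean levels from 203.9 CPM (Adgre1 in aged samples) upward, and Mertk was low, at 12.3, 28.7 and 18.8 CPM in young and 6.795, 16.7 and 12.6 CPM in aged samples. Of the 8, 1 fell and 1 rose, whereas 7.97% of all genes tested fell and 9.73% rose. The median log2 fold change of the 8 was -0.15. Lyz2, the highest by CPM, was at 29834 ± 7889.8 CPM over the young and 18621 ± 2596 CPM over the aged samples (SD, n = 3). Among the genes of the sort markers, Itgam rose (log2 fold change 0.99) and Adgre1 fell (-0.69), while Ptprc (0.26) and Fcgr1 (0.15) did not pass the test. Of 15 neutrophil genes 12 were tested and 4 rose, namely Cd177, Cxcr2, Lcn2 and Retnlg, compared with 9.73% of all genes tested. The summed level of the neutrophil genes was 717 to 1217 CPM over the young and 926 to 1583 CPM over the aged samples. S100a9 was the highest neutrophil gene by mean CPM in both ages. Elane was at 0 in all young samples. Of 8 keratinocyte genes, only Krt14 was tested. Krt14 passed the edgeR test as higher in aged samples (adjusted p = 0.0259), at 0, 3 and 1 counts in young and 11, 1259 and 14 counts in aged samples. The young samples were at or under the floor of 3 counts and nearly all counts were in aged B, so that no fold is given, and the keratinocyte sum was 0.727 to 0.880 CPM in young samples, 2.17 and 1.73 CPM in aged A and C and 138 CPM in aged B. The fibroblast sum was 25.2 to 41.5 CPM in young samples, 12.4 and 36.9 CPM in aged A and C and 121 CPM in aged B. Of the 6 tested fibroblast genes 0 were called, and Col3a1 was the highest by mean CPM in both ages. The mast cell sum was 25.6 to 94.8 CPM over the young and 0.741 to 64.2 CPM over the aged samples, with 0 of 5 genes called, Cma1 the highest by mean in young and Tpsb2 in aged samples, and Cpa3 and Cma1 at 0 in aged B and C. Of 4 tested erythroid genes 3 fell, Hba-a1, Hbb-bs and Hbb-bt, compared with 7.97% of all genes tested. The erythroid sum was 118 to 378 CPM over the young and 32.9 to 121 CPM over the aged samples. Lymphocyte genes summed to 2.91 to 3.98 and 2.55 to 3.78 CPM with 0 of 2 tested genes called, Nkg7 the highest by mean in young and Trac in aged samples, and of 2 tested endothelial genes Pecam1, which leukocytes also express, rose. The part of these cells in the lower replication genes was not tested. The fit without aged B given above left out the sample with the highest keratinocyte and fibroblast sums.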

How the data were processed

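Macrophages sorted from the Day 3 wounds of 3 young and 3 aged samples were compared. The authors aligned the reads with STAR 2.7.3a to the mm10 mouse genome, quantified Ensembl transcripts with Partek Flow and deposited expected counts per gene without normalisation. Strand use in the counting was not given in the sources used here, and if strand was not used, reads of genes that overlap on opposite strands cannot be told apart. A second deposited table, of the authors' own DESeq2 comparison, was not used.

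Expected counts were rounded to whole numbers, although the design had named counts, and 12 of the 52 genes held values that were not whole (tolerance 0.01). The analysis used edgeR 4.0.16 in R 4.3.3 with TMM scaling, its filter filterByExpr and its quasi-likelihood test, aged samples against young, without a block. The adjusted p-value (Benjamini-Hochberg over 11878 genes) had to be under 0.05 for a call. CPM values use TMM-scaled library sizes, and 1 count is worth 0.0553 to 0.0701 CPM, so that the precision of members with few counts is low. Levels per kilobase use the longest GENCODE transcript. Replicates differed by more than sampling noise and were counted separately. DESeq2 1.42.0, its size factors in edgeR, limma-voom (limma 3.58.1), other filters, the set letter as a block, an adjusted p-value under 0.1 and leaving out each sample were alternatives. Full statistics are given for members that passed the test or had the highest or lowest log2 fold change of their complex. Members, lists and motifs were chosen with earlier results of these data known. Steps were tested on simulated data, and plots were made with matplotlib 3.10.9.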

Additional observations from a re-analysis of the deposited data

How the results depend on the processing

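The falling members numbered 25, and between 24 and 34 in the alternatives that kept all samples (27 with DESeq2, 34 with limma-voom and 32 at an adjusted p-value under 0.1), with 0 rising in each. The share of all genes tested that fell was 7.97%, and 9.16% with DESeq2, 14.4% with limma-voom and 13.3% at an adjusted p-value under 0.1. With each sample left out in turn they numbered 5 to 24, lowest without young C (5) and without aged C (8), and the median log2 fold change stayed between -0.97 and -0.82. Over all genes, the falling genes dropped from 947 to 67 without young C and 194 without aged C. Gmnn, Mcm2, Gins2, Rfc4 and Tipin passed the test in all 6 of these fits, Mcm7, Gins1 and Rpa1 in 5, and Mcm3, Mcm5, Mcm6, Prim1, Pold2 and Rfc5 in 4. Orc2, Orc5, Rfc2, Rfc3 and Rnaseh2a passed in 3, Gins4 and Pole3 in 2, and Mcm4, Cdc45, Mcm10 and Rfc1 in 1. Over these settings the sign changed in 4 of the 48 members, all with values near 0. Fen1 was at 0.0151 with the replicate block and 0.0499 with limma-voom, and with each sample left out in turn Fen1 ran from -0.27 to 0.30, Cdt1 from -0.19 to 0.66, Pold3 from -0.18 to 0.0621 and Dna2 from -0.46 to 0.19. Samples with the same set letter deviated together only weakly (correlations of 0.18 for A, -0.02 for B and 0.11 for C), so that the letter was not treated as a pairing. With the replicate block 25 members fell, as without it, Rfc1 no longer passed (adjusted p = 0.0620) and Lig1 did (adjusted p = 0.0486), and 912 genes fell in all against 947. With limma-voom, Orc6, Cdc6, Gins3, Pola1, Prim2, Pold1, Pole2, Rpa3 and Lig1 passed the test, which they did not in the main fit. Members with under about 10 counts in a sample, such as Mcm10, are limited by depth.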
